A study of Mus musculus with 2 samples.

Results

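Slc1a2, Slc1a3, Slc6a11, Slc7a10, Slc4a4, Aqp4 and Glul are 7 genes by which astroglia take up and convert neurotransmitters and move amino acids, bicarbonate and water. They were taken by name out of the 23906 genes counted in the brain library (25814 genes over both libraries of the series), and all 7 had counts there. They were followed in 4 classes of cells, which were Gfap/Thbs4 quiescent neural stem cell-like cells (the quiescent class), Slc7a10/Cxcl14 astrocyte-like cells, activated neural stem cell-like cells (the activated class) and ependymal-like cells. The cells of the series were Nes-GFP+ cells, sorted by flow cytometry from trypsin-dissociated brain or lung of mice about 6 weeks old that carry a transgene in which Nestin regulatory elements drive green fluorescent protein. Every cell therefore came through the same reporter gate, which also passes vascular and connective tissue cells. The labels name the strain C57BL/6, whereas the methods speak of CD1 or CD1 and C3H stock. There was 1 droplet library (10x Genomics 3′ chemistry, version 3) per tissue, so no difference given here has a replicate check, no test was made and no p-value is given.

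Astrocytes and quiescent neural stem cells (NSCs) share much of their glial machinery. Glutamate released by neurons is cleared by the carriers GLT-1 (Slc1a2) and GLAST (Slc1a3) and turned into glutamine by glutamine synthetase (Glul), while GABA is cleared in part by GAT-3 (Slc6a11). Asc-1 (Slc7a10) exchanges small neutral amino acids such as glycine and D-serine, NBCe1 (Slc4a4) carries bicarbonate with sodium, and aquaporin-4 (Aqp4) is the main water channel of astrocyte endfeet and of the ependymal lining of the ventricles.

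In these data all 7 genes were at their highest in astrocyte-like cells, stood lower in quiescent cells and were at least 5.23-fold lower again in the activated class, a cluster that scored almost as high for neuroblast as for activated markers. The sizes of these differences were uneven. Slc1a2, Slc1a3, Slc6a11 and Glul were between 5.23 and 9.08-fold lower than in quiescent cells, whereas Slc7a10, Slc4a4 and Aqp4 were between 49.2 and 58.6-fold lower. In 107 of the activated cells that a finer clustering set apart, the first 4 genes were 3.54 to 5.16-fold and the other 3 genes 36.0 to 37.1-fold lower than in quiescent cells. Ependymal-like cells had Aqp4 at the level of quiescent cells but lower levels of the other 6 genes.

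The level of a gene in a class is its summed count of unique molecular identifiers (UMIs) divided by all UMIs of that class and given as counts-per-million (CPM), with an exact Poisson 95% interval. Ratios are ratios of CPM with an exact conditional binomial 95% interval, and a gene was called when its ratio was at least 2-fold with an interval that excluded 1. Intervals cover counting error only. Of the 4640 barcodes of the brain library, 4151 cells with 19518081 UMIs were kept, at a median of 4209 UMIs per cell, and 15 barcodes occurred in both libraries. They fell into 19 clusters of 31 to 758 cells. The clusters were formed without the 7 genes, without the other transport genes described below and without cell cycle genes. The 7 genes therefore did not enter the clustering themselves. Other genes with similar patterns were not left out, so the classes and the levels of the 7 genes are not independent. In addition, the name of the astrocyte-like class contains Slc7a10. The quiescent class was 1 cluster of 225 cells (median 3939 UMIs), the astrocyte-like class 1 cluster of 463 cells (4372 UMIs), the activated class 1 cluster of 276 cells (7752 UMIs) and the ependymal-like class 1 cluster of 118 cells (5985 UMIs).

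The classes were named by marker genes, so the marker levels given here describe the names and are no separate check of them. Thbs4 was at 385 CPM in the quiescent class and 20.8 CPM in the astrocyte-like class, and Gfap at 643 and 75.3 CPM. Cxcl14 went the other way, with 116 CPM in the quiescent and 884 CPM in the astrocyte-like class. Foxj1, the regulator of motile cilia, was at 557 CPM in the ependymal-like class and 43.4 CPM in the quiescent class. The genes that led the quiescent cluster were Thbs4, Spp2, Wfdc2, Gfap, Sspo and Myoc, followed by Fxyd1, Mgarp, Glycam1 and Ttr. The activated class was the highest of the 4 for Egfr (235 CPM) and the replication gene Mcm2 (182 CPM), but it also held neuroblast RNA. Its name was close to a tie, since the marker score (the mean log2 level of a list above its mean over clusters) was 2.50 for the activated and 2.49 for the neuroblast list, under the lead of 0.5 asked for. It was settled by the 10 leading genes of the cluster, of which 3 were activated and none were neuroblast markers. The 9 neuroblast markers summed to 5879 CPM there, against 2728 CPM for the 10 activated markers and against 276 CPM of neuroblast markers in the quiescent class, with Dcx at 402 and Dlx1 at 934 CPM in the activated class. Of the 10 activated markers, Fabp7 alone gave 1681 of the 2502 CPM found in the quiescent class, so their sum does not separate these 2 classes. Among the markers of other cells, the 6 endothelial genes summed to between 21.4 and 46.5 CPM in the 4 classes. The 7 microglial genes summed to between 0.0 and 13.8 CPM. The 8 mature oligodendrocyte genes summed to 420 CPM in the quiescent, 354 in the astrocyte-like, 237 in the activated and 275 in the ependymal-like class. They summed to 383 CPM in the endothelial-like class. The 8 oligodendrocyte progenitor genes were at 171, 226, 135 and 31.3 CPM in the 4 classes, in the same order. The 8 mural genes reached 768 CPM in the quiescent class, of which Vtn made up 622 CPM, against 18.5 CPM in the activated class. The Vtn UMIs of the quiescent class were found in 4.44% of its cells. Another 146 cells with astroglial RNA and a median of only 1453.5 UMIs formed a shallow cluster that was kept apart, and 341 cells in 2 clusters led by genes of DNA replication and mitosis were kept apart as cycling cells.

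Sequences upstream of 4 of the genes are shown because the 7 genes fell into a group that was lower and a group that was nearly absent in activated cells. RefSeq windows from 250 bases before to 50 bases after a transcription start (GRCm38.p6) were found for 6 of the 7 genes, Aqp4 being the exception. Slc1a2 (chr2:102706188-102706487, plus strand) and Glul (chr1:153899679-153899978, plus strand) belong to the first group, and Slc7a10 (chr7:35186135-35186434, plus strand) and Slc4a4 (chr5:88887010-88887309, plus strand, the first of its 2 windows) to the second. Capitals mark CAGCTG, an E-box, the kind of site that basic helix-loop-helix factors bind, and TTCCCA, a core of RBPJ sites.
Slc1a2: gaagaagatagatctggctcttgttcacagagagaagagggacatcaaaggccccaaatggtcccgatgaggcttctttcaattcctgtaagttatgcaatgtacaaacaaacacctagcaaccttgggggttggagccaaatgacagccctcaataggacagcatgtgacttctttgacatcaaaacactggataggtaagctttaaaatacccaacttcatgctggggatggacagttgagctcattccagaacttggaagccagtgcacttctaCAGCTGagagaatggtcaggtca
Glul: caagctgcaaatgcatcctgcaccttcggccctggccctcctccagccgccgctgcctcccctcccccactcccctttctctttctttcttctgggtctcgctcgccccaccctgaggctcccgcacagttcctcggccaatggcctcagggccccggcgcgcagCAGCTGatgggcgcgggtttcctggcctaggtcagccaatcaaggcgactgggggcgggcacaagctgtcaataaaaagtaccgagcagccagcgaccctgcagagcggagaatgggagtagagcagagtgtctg
Slc7a10: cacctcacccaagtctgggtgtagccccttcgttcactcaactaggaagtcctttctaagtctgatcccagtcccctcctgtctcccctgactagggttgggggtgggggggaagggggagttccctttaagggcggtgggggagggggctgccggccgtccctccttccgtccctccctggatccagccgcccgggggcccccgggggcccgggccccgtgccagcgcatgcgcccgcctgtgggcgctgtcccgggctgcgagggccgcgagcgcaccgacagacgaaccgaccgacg
Slc4a4: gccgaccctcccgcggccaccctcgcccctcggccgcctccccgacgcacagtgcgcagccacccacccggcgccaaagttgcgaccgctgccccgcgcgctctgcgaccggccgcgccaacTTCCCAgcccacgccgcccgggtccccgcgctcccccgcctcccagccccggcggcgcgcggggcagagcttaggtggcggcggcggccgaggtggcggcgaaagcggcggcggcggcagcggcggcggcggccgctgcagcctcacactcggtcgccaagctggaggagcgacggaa
The palindrome CAGCTG occurred in Slc1a2, 27 bases after the start, and in Glul, 85 bases before it, and in no window of the other 4 genes. It was held by 16.3% of all 32851 windows of this kind. TTCCCA, searched on both strands, occurred in 1 window of Slc4a4 and in 25.6% of all windows. The NFI letters TTGGCA (14.1% of all windows), the full palindromic NFI site (0.0365%) and the SOX letters AACAAT (10.7%) occurred in none of the 7 windows, and TATAAA (13.6%) in that of Slc1a3 alone. The windows also differed in base composition, from 1 CpG in Slc1a2 and 3 in Slc1a3 to 17 in Glul, 24 in Slc7a10, 32 in Slc6a11 and 50 in the window of Slc4a4 shown, against a median of 7 over all windows. Which start the cells used cannot be read from 3′ counts, and the annotated Slc1a2 gene begins upstream of the window printed here.

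The glutamate carriers were examined first. Slc1a2 (chromosome 2, 102658659 to 102790784, plus strand, GRCm38) was at 8975 CPM in the astrocyte-like class (8846 to 9105), 5624 in the quiescent class (5473 to 5777), 666 in the activated class (632 to 702) and 279 in the ependymal-like class (241 to 321). None of these 4 intervals overlapped. Slc1a3 (chromosome 15, 8634124 to 8710764, minus strand) stood in the same order, with 3902, 3302, 378 and 286 CPM, and its intervals did not overlap either. The step from quiescent to activated cells was 8.44-fold for Slc1a2 (7.95 to 8.96) and 8.74-fold for Slc1a3 (8.09 to 9.46), with intervals that overlapped, whereas the ratios of the 2 carriers to astrocyte-like and to ependymal-like cells had intervals that were apart.

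Outside astroglia the 2 carriers parted. Slc1a3 was at 1421 CPM in microglia-like cells (34 cells, 236 UMIs, 1245 to 1614) and 915 CPM in fibroblast-like cells (823 to 1015), above the activated class. Slc1a2 in those 2 classes was at 66.2 and 153 CPM. Per Slc1a2 UMI there were 21.5 Slc1a3 UMIs in microglia-like cells (11.8 to 43.6) and 5.97 in fibroblast-like cells, against 0.587 in the quiescent class (0.562 to 0.614) and 0.510 over the whole library. Another departure was seen in oligodendrocyte progenitor-like cells of the cluster led by Pdgfra, where Slc1a2 reached 626 CPM (558 to 699), a level whose interval overlapped that of the activated class.

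The GABA carrier was examined next. Slc6a11 (chromosome 6, 114131241 to 114249952, plus strand) was at 510 CPM in the astrocyte-like class (479 to 541), 276 in the quiescent class (244 to 312), 30.4 in the activated class (23.4 to 38.8) and 28.5 in the ependymal-like class (17.4 to 44.0). The last 2 did not differ beyond their intervals. The step from quiescent to activated cells was 9.08-fold (6.89 to 12.1), close to those of both glutamate carriers. In neuroblast-like cells the gene was at 4.78 CPM.

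Slc7a10 (chromosome 7, 35186385 to 35201114, plus strand) marked the astrocyte-like class, at 330 CPM (306 to 355) against 83.6 CPM in the quiescent class (66.2 to 104). Since this class is named after the gene, that difference is a description of the name. It had 3 UMIs in 276 activated cells (1.42 CPM) and 1 UMI in 118 ependymal-like cells (1.42 CPM). The ratio of quiescent to activated cells was 58.6 (19.4 to 290.5), and that of quiescent to ependymal-like cells was 58.7 (10.2 to 2347). Both rest on these few UMIs. Unlike the other 6 genes, its level in the shallow astroglial cluster, 306 CPM, did not differ from that of the astrocyte-like class beyond the intervals.

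The bicarbonate carrier Slc4a4 (chromosome 5, 88886818 to 89239653, plus strand) was at 1516 CPM in the astrocyte-like class (1463 to 1570), 630 in the quiescent class (581 to 683), 165 in the ependymal-like class (137 to 198) and 12.8 in the activated class (8.45 to 18.7). Here the activated class was the lowest of the 4, below ependymal-like cells, and the ratio of quiescent to activated cells was 49.2 (33.4 to 75.2). The activated class was also below neuroblast-like cells for this gene. Neuroblast-like cells had 60.3 CPM (54.2 to 66.9), with 85.5 CPM in the larger of the 2 neuroblast clusters and 36.9 CPM in the other. Activated cells were at 0.213 of the neuroblast level (0.138 to 0.315), where 8.53% of genes were called lower. Of the other 5 members with enough counts, Slc1a2 (5.58-fold), Slc1a3 (4.41-fold) and Slc6a11 (6.36-fold, 4.02 to 10.3) were called higher in activated than in neuroblast-like cells, against 12.9% of genes.

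Aqp4 (chromosome 18, 15389496 to 15410982, minus strand) was at 1200 CPM in the astrocyte-like class (1153 to 1248), 672 in the ependymal-like class (613 to 736), 611 in the quiescent class (563 to 663) and 10.4 in the activated class (6.55 to 15.8). The ependymal-like and quiescent levels overlapped, at a ratio of 0.910 (0.804 to 1.03). Ependymal-like cells therefore carried 2.41 Aqp4 UMIs per Slc1a2 UMI (2.03 to 2.86), where quiescent cells carried 0.109 and astrocyte-like cells 0.134. From quiescent to activated cells Aqp4 was 58.5-fold lower (38.3 to 94.1).

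Glul (chromosome 1, 153899944 to 153909723, plus strand) was at 2505 CPM in the astrocyte-like class (2437 to 2574), 810 in the quiescent class (754 to 870), 155 in the activated class (139 to 173) and 96.8 in the ependymal-like class (75.2 to 123). It showed the smallest ratio of quiescent to activated cells among the 7, at 5.23 (4.59 to 5.98). It was also found at high levels outside astroglia. Mature oligodendrocyte-like cells had 1817 CPM (31 cells, 1685 to 1956), above the quiescent class, and endothelial-like cells had 773 CPM (725 to 823), which overlapped it. Fibroblast-like cells had 596 and microglia-like cells 518 CPM. Per Slc1a2 UMI there were 10.6 Glul UMIs in endothelial-like cells (8.52 to 13.2) and 12.6 in mature oligodendrocyte-like cells, against 0.144 in quiescent cells.

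**Figure D1:**
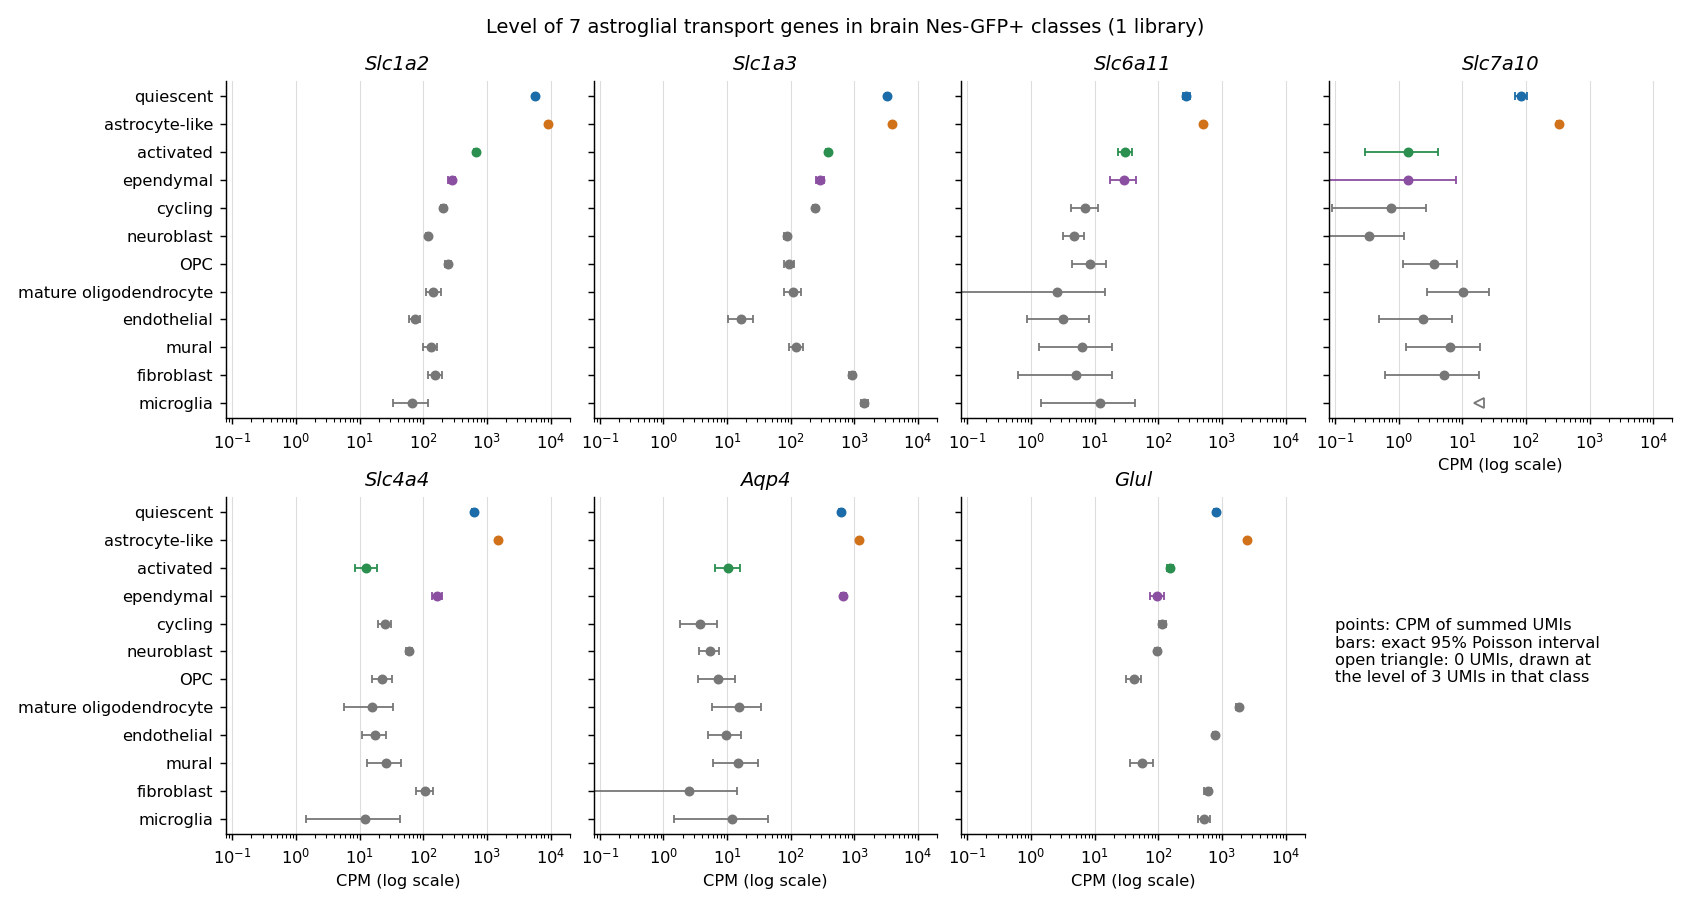
Level of each gene, in CPM on a log scale, in 12 classes of brain Nes-GFP+ cells from 1 library, with exact 95% Poisson intervals. Astrocyte-like cells (orange) lead every panel, activated cells (green) sit near 10 CPM or below for Slc7a10, Slc4a4 and Aqp4 (12.8 CPM at most), and Glul and Slc1a3 have further high points in non-neural classes.

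Some neighbouring genes could add to these counts. Over the Slc1a2 locus lies the antisense transcript Gm13872, which was counted on its own with 800 UMIs in the library and was at 227 CPM in the astrocyte-like, 93.1 in the quiescent and 13.3 in the activated class. It did not follow Slc1a2 in the shallow astroglial cluster, where it was at 576 CPM (482 to 685), above the astrocyte-like class. Slc7a10 overlaps Lrp3 on the other strand, which was at 20.1 CPM in the quiescent and 20.4 CPM in the activated class. Whether the counting used strand is not given in the sources used here, so reads of these pairs cannot be told apart.

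The question of how quiescent cells differ from activated cells was then put to the 7 genes together. They had been chosen with earlier results of these data known, so their count is a description and no separate support. All 7 were called higher in the quiescent class, against 24.6% of the 10533 genes with at least 10 CPM in either class, and the median ratio was 9.08 for the 7 genes and 0.954 for all genes. Scrublet called 2 of the 276 activated cells (0.725%) and 3 of the 225 quiescent cells (1.33%) as doublets, and doublets were kept. The count of 7 was the same under each of 10 alternative settings that gave a value. The sizes were less firm, and for Slc1a2 the ratio ranged from 4.32 at a finer clustering to 13.7 when the cycling clusters were joined to the activated class. When cells above the limit on genes were kept, the activated class had 574 cells, and the ratio was 16.6 for Slc6a11 and 27.1 for Slc4a4. With called doublets removed, the ratio for Aqp4 was 92.0.

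**Figure D2:**
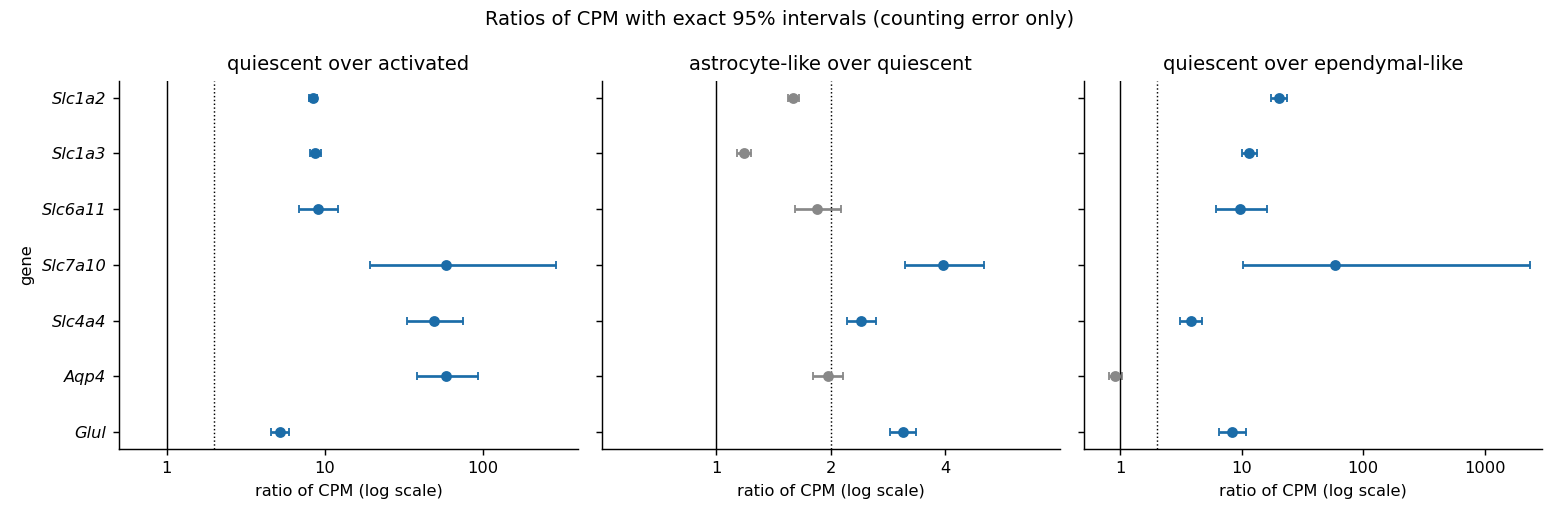
Ratios of CPM on log axes for 3 comparisons, with exact 95% intervals, a solid line at 1 and a dotted line at 2, blue where the call was made and grey where it was not. Slc7a10, Slc4a4 and Aqp4 stand at 49.2 to 58.6 on the left, all 7 genes lie above 1 in the middle, and only Aqp4 (0.910) reaches 1 on the right.

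The finer clustering divided the activated class and showed in which of its cells the carrier RNA lay. A cluster of 107 of its cells had Egfr, Gadd45g and Helt among its leading genes, and 165 others joined a finer cluster that took the neuroblast name, led by Ccnd2, Mcm2 and St18. The last 4 cells went to other clusters and are in neither portion. In these 107 cells (the Egfr-led portion) Slc1a2 was at 1309 CPM, or 23.3% of the quiescent level, Slc1a3 at 19.4%, Slc6a11 at 25.4% and Glul at 28.2%. Slc7a10, Slc4a4 and Aqp4 were in contrast at 2.71, 2.69 and 2.78% of the quiescent level in the same cells, with 2, 15 and 15 UMIs. The intervals of the 2 groups of ratios were apart, the quiescent to activated ratio being at most 5.66 for the first 4 genes at their upper bounds and at least 9.89 for the other 3 at their lower bounds. In the 165 cells that joined the neuroblast cluster Slc1a2 was at 3.24% and Slc1a3 at 5.60% of the quiescent level, and Glul kept 12.2%. Slc7a10 was at 1.01%, Slc4a4 at 1.33% and Aqp4 at 0.412% there, with 1, 10 and 3 UMIs. Slc6a11, with 1 UMI, was at 0.304% (ratio 329, 58.5 to 13031), so in these cells it did not stand with Slc1a2, Slc1a3 and Glul. All 7 genes were called higher in quiescent cells than in either portion, against 21.4 and 26.2% of genes.

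The activated class was also split by the RNA of Dcx, a marker of neuroblasts, with no further clustering. In 188 cells with a Dcx UMI and 88 without, at medians of 7752 and 7749 UMIs, Slc1a2 was at 320 and 1431 CPM (ratio 0.224, 0.200 to 0.250) and Slc6a11 at 6.21 and 83.8 CPM (0.0741, 0.0322 to 0.151). Called lower with Dcx were 6 of the 7 genes, against 9.26% of all genes, and Slc7a10 had 1 and 2 UMIs. The 12 astrocyte markers moved with them, at 210 and 1528 CPM, and the 8 neuroblast markers other than Dcx went the other way, at 7284 and 1487 CPM. By Egfr, Slc1a2, Slc1a3 and Slc6a11 were called higher in the 133 cells with a UMI than in the 143 without. Their ratios were 4.09, 2.32 and 7.98, and 7.24% of genes were called higher. Median depths were 8143 and 7383 UMIs. Glul was at 1.73 (1.37 to 2.18), short of 2-fold, and Slc4a4 and Aqp4 had intervals that included 1. Slc7a10 had 2 and 1 UMIs. In this split, too, the astrocyte markers were higher (1090 against 142 CPM) and the neuroblast markers lower (3218 against 8593 CPM). The part of these markers in the differences was not tested.

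**Figure D3:**
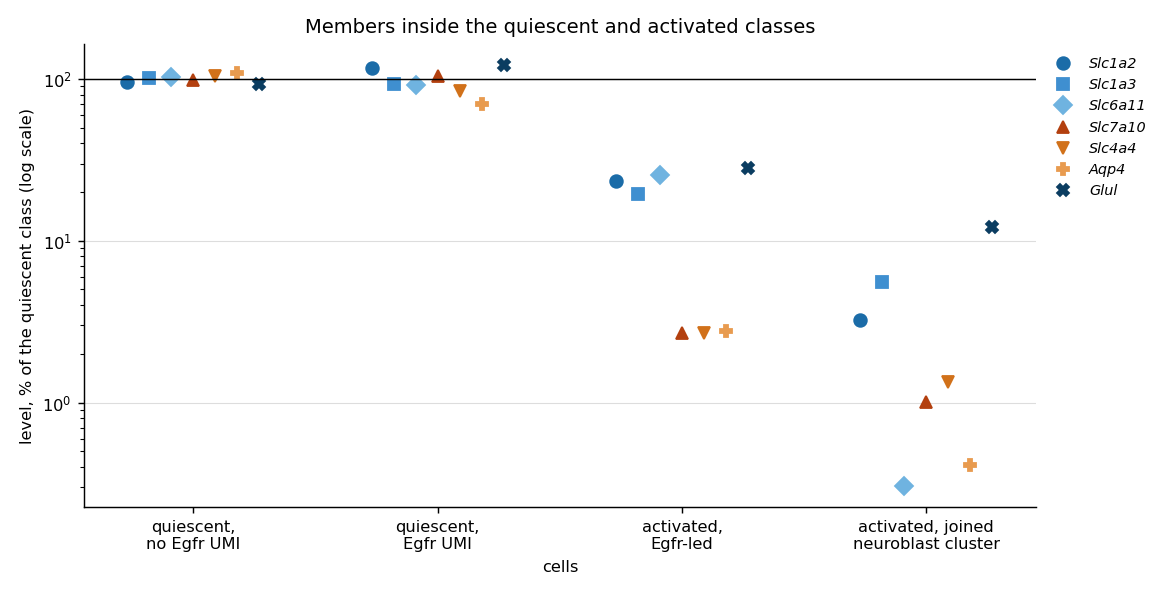
Level of each gene in portions of the quiescent and activated classes, as a percentage of its level in the whole quiescent class on a log scale. The order of the portions is not a measured time course. Slc7a10, Slc4a4 and Aqp4 (orange tones) are at 2.69 to 2.78% in Egfr-led activated cells, where the other 4 genes (blue tones) are at 19.4 to 28.2%. In the 165 activated cells that joined the neuroblast cluster Slc6a11 (0.304%) is the lowest of the 7.

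The quiescent class was then divided by the RNA of single genes outside the 7. With a Thbs4 UMI (72 cells, against 153 without, at similar medians of 3970.5 and 3917 UMIs) Slc1a2 was 1.66-fold higher (1.57 to 1.75) and Glul 1.44-fold higher (1.24 to 1.67), while Aqp4 was at 0.628 (0.510 to 0.768) and Slc6a11 at 0.685 (0.504 to 0.920). None of the 7 passed the 2-fold rule, against 1.91% of genes higher and 3.66% lower. The astrocyte markers were 1.32-fold higher, the neuroblast markers 1.91-fold higher and the ependymal markers at 0.401 in the Thbs4 cells. With an Egfr UMI (46 cells, against 179, at medians of 4862 and 3697 UMIs) none of the 7 passed it either. There 2.3% of genes were higher and 2.36% lower. Slc1a2 was at 1.22 (1.15 to 1.30), Glul at 1.30 (1.11 to 1.53), Slc4a4 at 0.807 (0.653 to 0.990) and Aqp4 at 0.640 (0.507 to 0.801). The intervals of the other members included 1. The neuroblast markers were 4.37-fold higher with Egfr (679 against 155 CPM) and the ependymal markers at 0.207 (73.4 against 355 CPM). With a Foxj1 UMI (24 cells, against 201, at medians of 4563.5 and 3819 UMIs) Slc1a2 and Slc1a3 were called lower, at 0.425 and 0.443. There 2.05% of genes were called lower. Glul (0.533, 0.401 to 0.698), Slc6a11 (0.540, 0.324 to 0.853) and Slc4a4 (0.742, 0.560 to 0.969) were lower, short of 2-fold. The Slc7a10 interval included 1, and Aqp4 was at 1.12 (0.881 to 1.42). The other 7 ependymal markers were at 1057 and 122 CPM in this split and the astrocyte markers at 1621 and 3617 CPM, and the neuroblast markers were 1.90-fold higher with Foxj1. In the ependymal-like class, each of the members other than Aqp4 was lower than in the quiescent class. The part of depth and of the astrocyte, neuroblast and ependymal markers in these differences was not tested.

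Astrocyte-like and quiescent cells were compared next. All 7 genes were higher in astrocyte-like cells with intervals above 1, from 1.18-fold for Slc1a3 (1.13 to 1.23) and 1.6-fold for Slc1a2 (1.55 to 1.65) to 3.09-fold for Glul (2.86 to 3.34) and 3.95-fold for Slc7a10 (3.12 to 5.05). Slc4a4 was 2.40-fold (2.20 to 2.63), Aqp4 1.96-fold (1.79 to 2.15) and Slc6a11 1.85-fold higher (1.61 to 2.12). The 2-fold rule was passed by 3 of the 7, or 2 of 6 without Slc7a10, against 6.51% of 10045 genes. The median of all genes in this comparison was 0.862. Scaling by median-of-ratios size factors moved all genes up by 0.26 on the log2 scale. With it, Aqp4 came to 2.35-fold and Slc6a11 to 2.21-fold. Since all genes moved, calls under that scaling cannot be set against the 6.51%. Ependymal markers were at 290 CPM in the quiescent and 28.0 CPM in the astrocyte-like class. Against activated cells, all 7 genes were called higher in astrocyte-like cells, where 21.6% of genes were, from 10.3-fold for Slc1a3 (9.61 to 11.1) to 118-fold for Slc4a4 (81.1 to 180) and 231.5-fold for Slc7a10 (78.9 to 1125). The ratio of astrocyte-like to quiescent cells was 2.14 for Glul with mitochondrial counts limited to 20%, under that of Slc4a4 (2.41) there, and 2.40 for Slc7a10 when each cell was thinned to 1000 UMIs, so the order of these 3 genes is not settled.

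The finer clustering also divided the astrocyte-like cells, into 348 cells (median 4848 UMIs) and 112 cells (median 2078.5 UMIs, 7 of them called as doublets), with 3 cells in other clusters. Called higher than in quiescent cells were 4 of the 7 genes in the first portion, where 6.71% of genes were, and 3 in the second, where 6.69% were. Glul remained 3.16-fold and 2.67-fold above the quiescent class in these 2 portions and Slc4a4 2.44-fold and 2.25-fold. Slc1a3 was 1.23-fold above the quiescent class in the first and below it in the second (0.911, 0.845 to 0.981). Aqp4 was 2.08-fold higher in the first (1.90 to 2.29) and 1.31-fold in the second (1.12 to 1.52). Neuroblast RNA moved with this division, with Dcx at 18.2 CPM in the first and 170 CPM in the second portion, Tubb3 at 27.9 and 409 CPM and Dlx1 at 17.1 and 193 CPM, and its part in these values was not tested. In the shallow astroglial cluster, set against the astrocyte-like class, Glul (0.273, 0.231 to 0.320), Aqp4 (0.318, 0.253 to 0.394) and Slc6a11 (0.374, 0.269 to 0.508) were called lower, where 16.3% of genes were, while Slc1a2 was at 0.886 and Slc7a10 at 0.928. Against the quiescent class Slc7a10 was the 1 of the 7 genes called higher in the shallow cluster (3.66-fold, 2.61 to 5.12), where 13.4% of genes were. That cluster had a median mitochondrial share of 9.84% of UMIs, against 4.84% in the astrocyte-like class. Its astrocyte markers summed to 2953 CPM against 9044 CPM, and 7 markers of astroglia in general to 3219 against 16336 CPM. Mature oligodendrocyte markers were at 993 against 354 CPM. The part of these markers in the values of the shallow cluster was not tested.

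Against ependymal-like cells, 6 of the 7 genes were called higher in quiescent cells, where 17.2% of 10691 genes were. The ratios were 20.1 for Slc1a2 (17.5 to 23.4), 11.5 for Slc1a3 (10.0 to 13.4), 9.69 for Slc6a11 (6.15 to 16.1), 8.37 for Glul (6.52 to 10.9) and 3.82 for Slc4a4 (3.12 to 4.70). The bicarbonate carrier was after Aqp4 the member that ependymal-like cells kept most. The ratio for Slc6a11 rose to 20 when each cell was thinned to 1000 UMIs, against 20 UMIs in ependymal-like cells before thinning. Slc7a10 had no UMI left in ependymal-like cells at that depth and was at least 5.55-fold higher in quiescent cells, against a floor of 3 UMIs over the class.

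Depth differed between the classes, so the share of cells with a UMI of each gene was also set at 1000 UMIs per cell, as the mean chance that a cell would keep at least 1 UMI. Slc1a2 would be found in 99.3% of astrocyte-like, 90.4% of quiescent, 33.1% of activated and 16% of ependymal-like cells. The endothelial-like class (328 cells, median 3800.5 UMIs), which should lack the gene, gave 7.59%. Before thinning, the shares were 100, 95.6, 73.9, 50.8 and 18.9%. Slc4a4 would be found in 73.3% of astrocyte-like and 36.8% of quiescent cells, and Aqp4 in 61.5 and 28.6%. In activated cells Slc7a10 (0.133%), Slc4a4 (1.29%) and Aqp4 (0.939%) stood beside endothelial-like shares of 0.531, 2.14 and 0.937%, that is, within counting error of that class. By level, Aqp4 in activated cells was 2.78-fold above cycling cells (1.26 to 6.57) and 1.97-fold above neuroblast-like cells (1.09 to 3.52). Slc6a11 in activated cells (2.94%, 1.26 to 5.65) was above its endothelial-like share of 0.301%, with intervals that overlapped (0.00799 to 1.75). These share intervals treat the rounded expected number of cells as a count. By level, Slc6a11 was at 30.4 CPM in activated (23.4 to 38.8) and 3.18 CPM in endothelial-like cells (0.867 to 8.15), with intervals that were apart. Activated cells had 0.0157 Aqp4 UMIs per Slc1a2 UMI (0.00979 to 0.0238), and the whole library 0.127.

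**Figure D4:**
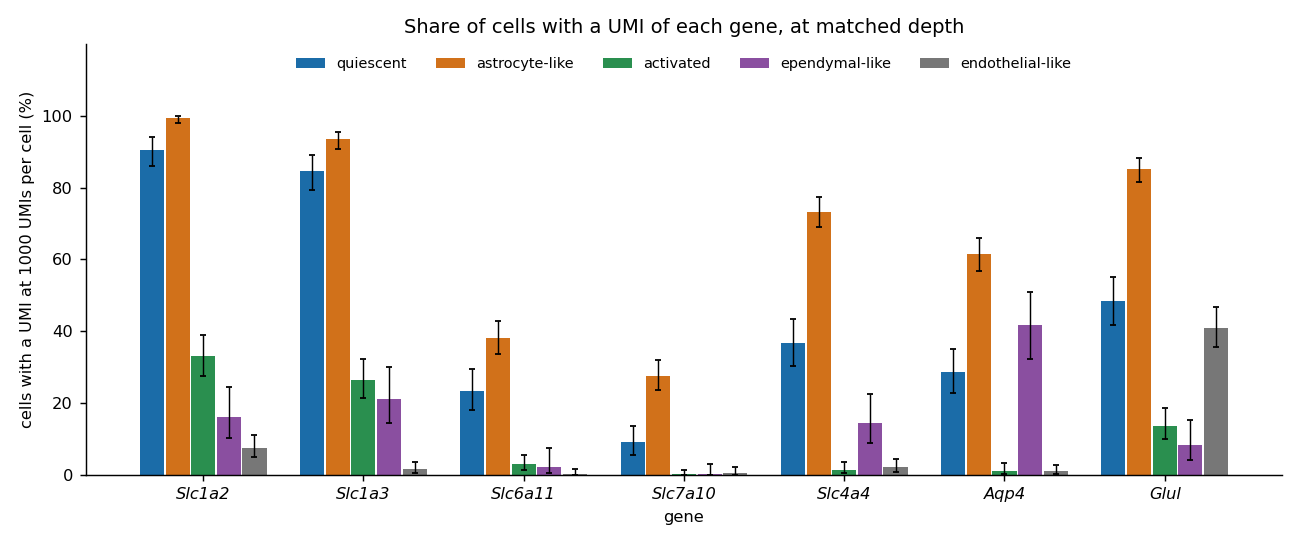
Percentage of cells expected to show a UMI of each gene at a depth of 1000 UMIs per cell, in 5 classes. The 95% binomial intervals treat the rounded expected number of cells as a count. Astrocyte-like bars exceed quiescent bars for every gene, activated bars for Slc7a10, Slc4a4 and Aqp4 lie at 1.29% or below, and Glul reaches 41.0% in endothelial-like cells.

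The genes were also counted per cell. A cell thinned to 1000 UMIs would show on average 4.78 of the 7 genes in the astrocyte-like class, 3.21 in the quiescent class, 1.04 in the ependymal-like class and 0.786 in the activated class. The same measure was 0.542 in endothelial-like, 1.08 in microglia-like and 1.11 in fibroblast-like cells, so the activated and ependymal-like values were within the range of these other classes. Without thinning, all 7 were present in 248 astrocyte-like cells (53.6%), 17 quiescent cells (7.56%), 1 ependymal-like cell and no activated cell. Within the quiescent class the cells were spread widely. Slc1a2 ranged from 10.2 UMIs per 10000 at the 10th percentile of cells to 115 at the 90th, against 45.0 to 147 in the astrocyte-like class.

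Each gene was placed among the other genes by its pattern over the 19 clusters, using the Pearson correlation of log2(CPM + 10) with 3847 genes that had at least 1000 UMIs, the 7 genes themselves being left out of the naming. These are descriptions, since all points share 1 library. Slc1a2 and Slc6a11 were both most like Ntsr2, a neurotensin receptor of astrocytes (r = 0.950 and 0.959), and Slc7a10 was most like the growth factor receptor gene Fgfr3 (r = 0.947). Slc4a4 was most like the fatty acid activating enzyme gene Acsl6 (r = 0.924) and Aqp4 most like Pla2g7, a secreted phospholipase (r = 0.949). Slc1a3 (Sirpa, r = 0.799) and Glul (the nuclear RNA Neat1, r = 0.815) had looser partners, and Glul correlated with Slc1a2 at only 0.466. Leaving out the 7, the other nearest genes were Acsl6 and Hes5 for Slc1a2, Grina and Notch2 for Slc1a3, Acsbg1 and Aldoc for Slc6a11, Acsbg1 and Cxcl14 for Slc7a10, Fam107a and Cxcl14 for Slc4a4, Fam107a and Slc39a12 for Aqp4, and Sepp1 and Pon2 for Glul. Ntsr2, Fgfr3, Acsbg1 and Cxcl14 were among the markers that named the astrocyte-like class.

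The rest of the transport system was taken from a list of 74 genes in 6 groups that includes the 7, of which 73 had counts. This list, too, was chosen with earlier results of these data known, so its counts are descriptions. Beyond the genes with the 3 largest and 3 smallest ratios of a comparison, examples were picked after their values were seen. Of the 67 other genes, 57 had at least 10 CPM in the quiescent or the activated class. There 42 were called higher in quiescent cells and 6 lower, against 24.6% and 20% of all genes, with a median ratio of 6.91. The water channel and endfoot group was the most uniform, with 9 of 9 higher, among them the gap junction genes Gja1 (27.4-fold, 21.9 to 34.8) and Gjb6 (31.7-fold) and the dystroglycan partners Dmd and Dtna (11.9-fold and 7.15-fold). Of 14 ion and acid-base genes 12 were higher, among them the ion transport regulator Fxyd1 (36.1-fold, 27.4 to 48.4). Slc4a7, another sodium bicarbonate carrier, went against Slc4a4 and was lower in quiescent cells (0.382, 0.237 to 0.592).

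Carriers of energy substrates, metals and urea were higher in 9 of 10 cases. The zinc carrier Slc39a12 had 110 UMIs in quiescent and 2 in activated cells (ratio 122, 33.1 to 1024). The urea carrier Slc14a1 had 51 and 0 UMIs, at least 37.9-fold higher against a floor of 3 UMIs over the class. Amino acid carriers were mixed, with 6 of 10 higher, including the cystine carrier Slc7a11 (20.4-fold, 12.7 to 34.7), and the arginine and lysine carrier Slc7a1 lower (0.148, 0.0392 to 0.4). Of the other glutamate and GABA carriers 4 of 5 were higher and none lower. Of the 9 glutamate and GABA enzymes besides Glul, 2 were higher (22.2%, near the share of all genes) and 4 lower (44.4%), and the difference from the carriers was not tested. Glud1, which oxidises glutamate, was 6.96-fold higher (5.83 to 8.35), whereas the GABA-making enzymes Gad2 (0.0225, 0.00726 to 0.0527) and Gad1 (0.163) and asparagine synthetase Asns (0.161) were lower in quiescent cells. The 9 neuroblast markers were at 276 CPM in the quiescent and 5879 CPM in the activated class, and their part in these ratios was not tested.

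**Figure D5:**
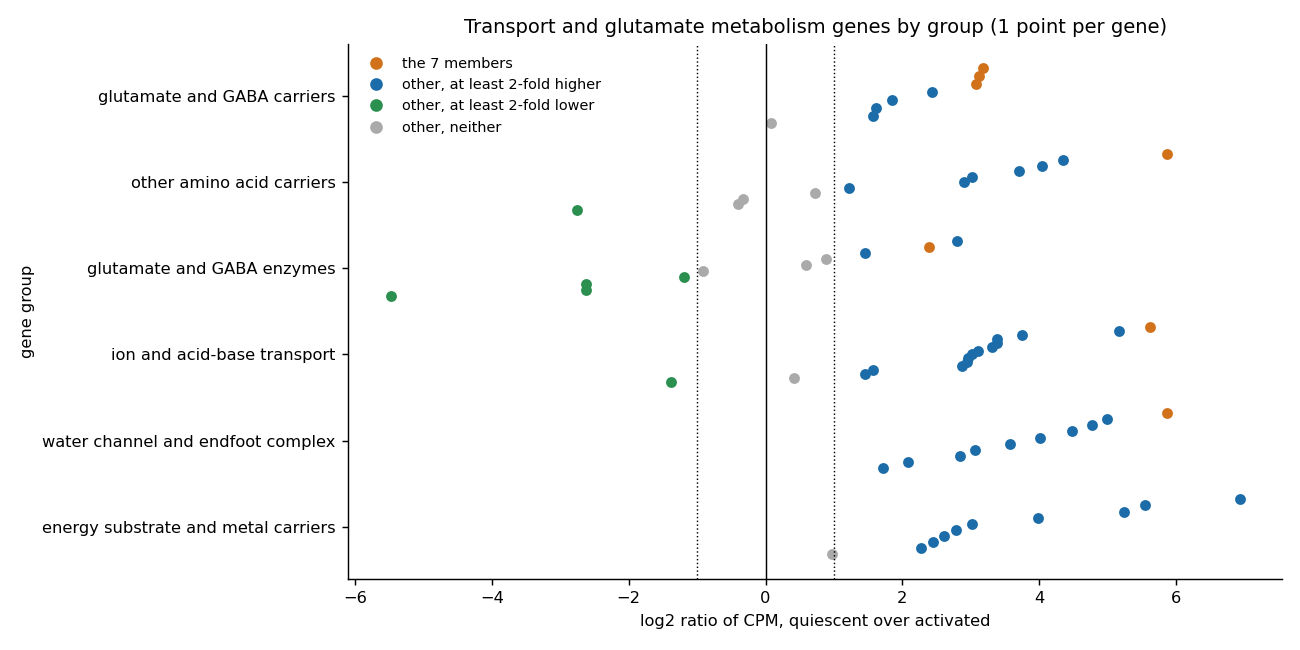
Log2 ratio of CPM, quiescent over activated, for the 64 transport and glutamate metabolism genes with at least 10 CPM in either class, by group, 1 point per gene, with dotted lines at 2-fold. Genes with 0 UMIs in activated cells are drawn against a floor of 3 UMIs. The 7 genes (orange) lie between 2.39 and 5.87, all endfoot genes lie to the right, and the enzymes spread to both sides.

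Between astrocyte-like and quiescent cells the wider list moved less, with 15 of 55 other genes higher and 8 lower, against 6.51% and 15.4% of all genes. Gjb6 (7.61-fold), the potassium channel Kcnj16 (6.72-fold) and carbonic anhydrase Car2 (6.09-fold) led the astrocyte side. The taurine carrier Slc6a6 was at 0.0256 (6 against 107 UMIs) and the glutamine carrier Slc38a1 at 0.130, both lower in astrocyte-like than in quiescent cells. Against ependymal-like cells, 24 of 54 other genes were higher in quiescent cells and 6 lower, against 17.2% and 16.9% of all genes. Among genes with at least 50 UMIs, Dtna (7.41-fold) and Slc7a11 (4.97-fold) were among the 3 largest, and the glucose carrier Slc2a1 (0.201), Dmd (0.412) and the anion exchanger Slc4a2 (0.463) the smallest.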

How the data were processed

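Nes-GFP+ cells of mouse brain and lung were profiled with 1 10x library each, and only the brain library enters the comparisons. The deposited files hold raw UMI counts per gene and cell barcode. Per the labels, the authors used bcl2fastq 2.19.1.403, STAR 2.7.1a against mm10, featureCounts 1.6.4 and UMI-tools 1.0.0 to make these counts (the methods name another version of UMI-tools). Introns, strand and annotation version are not given in the sources used here.

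The filters of the study's methods were applied, which ask for over 200 genes, under 4000 genes and under 40% mitochondrial counts per barcode (20, 418 and 54 brain barcodes failed). The study counts all 4640 brain barcodes as cells, of which 4151 were kept here. The upper limit removes cells of high UMI counts, and the kept cells hold 74.4% of the brain UMIs. Cells were clustered in Seurat 5.3.0 on 1898 variable genes, 20 components and resolution 0.8, with the 7 genes, the 74-gene transport list and cell cycle genes left out. Doublets called by Scrublet (44 of 4151 cells, 1.06%) were kept. Clusters were named by their markers, with thresholds set after seeing the data, and 3 clusters with 355 cells stayed unnamed. The members and lists were chosen with earlier results of these data known.

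UMIs were summed per class and scaled to CPM, and intervals came from SciPy 1.17.1. A gene entered a comparison with at least 10 CPM in either class, and a gene of the transport list could be named with at least 50 UMIs and 1 of the 3 largest or 3 smallest ratios. Results on some genes are not reported here. For each member, the 3 genes outside the 7 with the highest correlation over clusters were named. The ratio and interval step was tested on simulated counts. Alternatives covered cell filters, doublets, clustering, scaling, thinning and class borders.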

Additional observations from a re-analysis of the deposited data

How the results depend on the processing

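The 7 genes were called higher in quiescent than in activated cells under each of 10 alternatives, and 6 of them higher than in ependymal-like cells under each of 10. Of the 217 ratios of single members computed under 13 settings, 161 kept within the spread of the reported value, 56 moved, and no called ratio changed direction. The Aqp4 ratio of quiescent to ependymal-like cells, which was not called (0.910), ranged from 0.795 to 1.13 and so crossed 1. Scaling by median-of-ratios size factors raised the members called higher in astrocyte-like than quiescent cells from 3 to 5, since it moved all genes by 0.26 on the log2 scale there. The same scaling moved all genes by -0.19 in quiescent over ependymal-like cells, where thinning to 1000 UMIs moved the median of all genes by -0.26. Thinning each cell to 1000 UMIs left 3 of the transport list's 6 genes called lower in quiescent than in activated cells. The share of all genes called lower at that depth is not given here. Whether the list lost more calls than all genes is therefore not known. The quiescent to activated ratio ranged over 4.32 to 13.7 for Slc1a2, 5.16 to 11.0 for Slc1a3, 3.95 to 16.6 for Slc6a11, 19.7 to 79.6 for Slc7a10, 27.1 to 51.6 for Slc4a4, 35.7 to 92.0 for Aqp4 and 3.62 to 7.55 for Glul. Having no upper limit of genes per cell gave the highest values for Slc1a3 and Slc6a11 and the lowest for Slc4a4. The astrocyte-like to quiescent ratio ranged over 2.40 to 4.73 for Slc7a10 and 2.14 to 3.71 for Glul. Joining the shallow cluster to astrocyte-like cells and the cycling clusters to activated cells were alternatives chosen after seeing the data. At resolution 0.4 no activated class was formed, and each class was 1 cluster, so single clusters of a class could not be compared. No replicate could be left out and no spread between animals is known, since each tissue is 1 library. No paired analysis was possible because each tissue has 1 library with 1 replicate and no test was made.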

Other observations

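In the lung Nes-GFP+ library (5608 kept cells) the 7 genes kept a different balance. Slc4a4 was at 67.6 CPM, Glul at 82.6 CPM and Slc1a3 at 22.6 CPM, with 2149, 2628 and 718 UMIs. The other 4 had few counts, with 21 UMIs of Slc1a2, 15 of Slc7a10, 2 of Aqp4 and none of Slc6a11. In the whole brain library Slc1a2 was at 1507 CPM and Aqp4 at 191 CPM. Tissue and library cannot be told apart here.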
